A study of Homo sapiens with 2 samples.

Results

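RAG1, RAG2, DNTT and PTCRA encode proteins that build or carry rearranged antigen receptors, and the acetylation of histone H3 at lysine 27 (H3K27ac) was described here over these genes and the sequence around them in LOUCY. The members were the H3K27ac peaks that overlapped, by 1 bp or more, a gene body or the 30 kb either side of it. RAG1 and RAG2 lie side by side and were taken as 1 window of 91 kb (chr11:36559000-36650000, band 11p12). DNTT had a window of 94 kb (chr10:98034000-98128000, 10q24.1) and PTCRA one of 70 kb (chr6:42854000-42924000, 6p21.1), all in hg19. The windows held 9 of the 52203 peaks of the genome: 3 at RAG1 and RAG2, 1 at DNTT and 5 at PTCRA.

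LOUCY is an established human leukaemia line of immature T cells (T-ALL, T-cell acute lymphoblastic leukaemia), and the labels name no treatment. H3K27ac, which marks promoters and enhancers in use, was profiled by ChIP-seq in 1 library, and 1 library of input DNA from the same line served as control. The caller kept 54357332 tags of the first and 71932640 of the second. There were no replicates, so every value describes these libraries, and none was tested. No transcript was measured, and the T-cell marker genes that would check the labelled cell type were not placed in hg19 and were not analysed here.

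RAG1 and RAG2 form the recombinase that cuts DNA beside the V, D and J segments of T-cell receptor and immunoglobulin genes. RAG1 carries the catalytic centre, and RAG2 is its partner, which also binds a methylated form of histone H3. DNTT, better known as TdT, adds untemplated nucleotides to the cut ends before they are joined. PTCRA encodes the invariant pre-T-cell receptor alpha chain, which pairs with a newly made beta chain at the surface of immature thymocytes. All 4 genes are known for their activity in immature lymphocytes, and TdT is a common diagnostic marker of lymphoblasts.

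The mark was found at the start of RAG2, while no peak was called within 1 kb of the starts of RAG1, DNTT and PTCRA. That is 1 of 4 starts, against 60.5% of starts in a small hg19 set of 38 protein-coding genes (23 genes, 95% Wilson interval 44.7 to 74.4) and 8.74% of positions at whole kb across the genome. The interval covers counting error only, and with 4 genes the share of the members has little precision. Gene starts were taken as the ends of the gene bodies, which are given to the nearest 1 kb. The starts of the small set were the outermost listed ones of each gene, rounded in the same way. The body end used for RAG1 is not its outermost listed start, so RAG1 and the small set are not alike in this. By distance, the outermost RAG1 start falls in a peak, as given below. The bodies of DNTT and PTCRA held no peak at all, and 7.13% of the RAG1 and RAG2 body was covered. Peaks covered 4.90% of the genome, and 51.6% of windows of 70 kb, longer than any of these bodies, held no peak. An empty body is therefore common, and windows of the length of the bodies were not tallied.

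The promoters that RefSeq lists in GRCh38.p14 for RAG2, DNTT and PTCRA are shown next, since they are the sequence around which the mark was or was not called. Each runs from 250 bases before to 50 after the listed start, 5' to 3' on the strand of the gene, and capitals mark CANNTG, the core of the E-box bound by E proteins. The files are in hg19, so the peaks were not placed on these bases. That of RAG2 is at chr11:36598187-36598486 on the minus strand, that of DNTT at chr10:96304184-96304483 on the plus strand and that of PTCRA at chr6:42915803-42916102 on the plus strand, all in GRCh38.p14.
RAG2: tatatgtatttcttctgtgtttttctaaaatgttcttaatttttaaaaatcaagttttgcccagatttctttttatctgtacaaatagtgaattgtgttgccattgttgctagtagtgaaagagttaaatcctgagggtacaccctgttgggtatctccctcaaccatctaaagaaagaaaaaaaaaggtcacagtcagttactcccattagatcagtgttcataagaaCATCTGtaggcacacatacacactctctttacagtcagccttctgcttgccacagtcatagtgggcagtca
DNTT: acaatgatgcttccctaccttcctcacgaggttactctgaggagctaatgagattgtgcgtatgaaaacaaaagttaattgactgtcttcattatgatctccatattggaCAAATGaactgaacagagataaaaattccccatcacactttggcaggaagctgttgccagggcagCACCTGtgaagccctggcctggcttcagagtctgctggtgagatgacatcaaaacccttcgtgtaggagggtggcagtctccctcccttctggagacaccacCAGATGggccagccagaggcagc
PTCRA: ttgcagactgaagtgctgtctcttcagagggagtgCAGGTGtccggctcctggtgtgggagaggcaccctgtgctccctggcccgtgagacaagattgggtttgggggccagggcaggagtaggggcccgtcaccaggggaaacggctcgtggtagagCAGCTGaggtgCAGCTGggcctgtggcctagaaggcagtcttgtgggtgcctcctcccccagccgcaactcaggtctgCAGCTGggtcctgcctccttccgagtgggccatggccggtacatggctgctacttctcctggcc

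The 3 promoters differed in composition. That of RAG2 had a GC content of 36.7%, and 6.54% of the 35116 promoters in the table were as low or lower. That of DNTT had 49.3% and that of PTCRA 64.3%, against a median of 58.7%. CANNTG, which reads the same on both strands, occurred 1 time in the RAG2 promoter, as CATCTG at position -21, counted from the start with no position 0. It occurred 3 times in the DNTT promoter (CAAATG at -140, CACCTG at -75 and CAGATG at 28) and 4 times in that of PTCRA (CAGGTG at -215 and CAGCTG at -92, -81 and -14). Of all promoters, 68.7% held at least 1 CANNTG and 5.58% held 4 or more. At least 3 copies of CAGCTG, a motif singled out after it was seen, were found in 0.205% of promoters. These matches describe letters and not bound sites.

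Another 6 motifs were searched on both strands, and each is given with its share of all promoters. GATAA, the core bound by GATA factors, was matched 1 time each in the RAG2 and DNTT promoters and is present in 22.7% of all promoters. CCAAT, bound by NFY, was matched 1 time each in the DNTT and PTCRA promoters (34.6% of all promoters), and CAGGAA, an ETS core, 1 time in that of DNTT (28.4%). The RUNX motif TGTGGT was in none of the 3 promoters and in 13.1% of all. The motif TGGGAA, shared by CSL, which acts in NOTCH signalling, and IKAROS, was likewise in none (24.0% of all). So was the TATA box, searched as TATAAA (11.5% of all). The promoter that the table lists for RAG1 belongs to a gene model of 69.4 kb, longer than the 31 kb body of both RAG genes, and shares 180 of its 300 bases with the promoter of TRAF6, the neighbouring gene on the opposite strand. It therefore starts outside the body used here and is not printed. Its GC content was 72.3%, with 85.7% of all promoters as low or lower, and it held CAGCTG 1 time. The count of 1 start of 4 uses the body ends, and the value for RAG1 depends on which of its starts is taken.

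**Figure D1:**
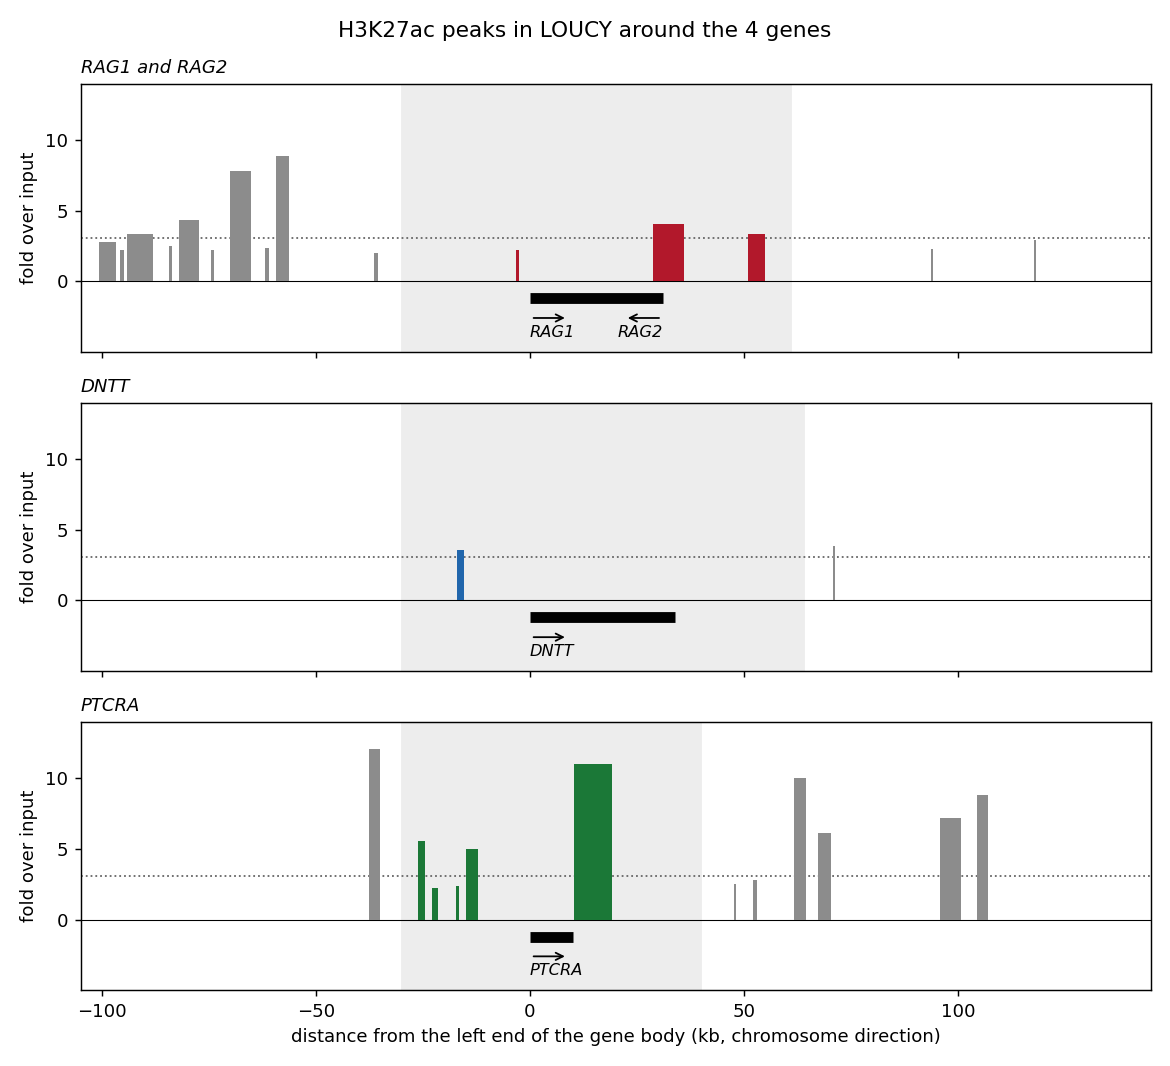
H3K27ac peaks within 100 kb of each gene body; the x axis is the distance in kb from the left end of the body, the y axis the deposited fold over input, and each bar is 1 peak drawn over its width (at least 0.6 kb). Coloured bars are the 9 member peaks inside the shaded windows, grey bars lie outside, black bars are the gene bodies, arrows give the direction of transcription and the dotted line is the median fold of all peaks, 3.08. A peak spans the start of RAG2, while the bodies of DNTT and PTCRA are free of peaks.

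RAG2, the recombinase partner, carried the widest peak of its window. The peak ran from 36617792 to 36624899 of chromosome 11, 7.11 kb, with a fold of 4.08 over input and a -log10 q of 14.1, as the authors' caller gave them. RAG2 is read from the right end of the body towards RAG1, so 2.21 kb of the peak lay inside the gene and 4.90 kb before its start. By width the peak was above 91.9% of all peaks, but by fold only above 63.4%. Among the 1385 peaks with a width within 10% of it, the median fold was 6.74, and 13.8% of them had a lower fold. The peak was therefore wide, and its fold was low for its width, though not among all peaks. IFTAP, a gene read in the opposite direction, overlaps RAG2 in the gene table of GRCh38.p14, and the peak cannot be given to RAG2 alone. In that build the 2 listed IFTAP starts lie 3.42 and 3.73 kb inside RAG2 from its start, while the peak in hg19 reached 2.21 kb inside. Distances in the 2 builds are set side by side here and below, with no conversion of coordinates, and bodies in hg19 are known to 1 kb.

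Since fold divides by the local input level, that level is given too. The input level implied by the fold and p-value of this peak was 10.5, higher than that of 95.7% of all peaks (median 6.35). The part of the input level in the low fold for its width was not tested. When peaks were ranked by the implied ChIP pileup instead, a measure added after the data had been seen, the peak was above 74.0% of peaks rather than 63.4%.

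A second peak lay 19.95 kb before the start of RAG2 (36639952 to 36643859, 3.91 kb). Its fold was 3.32 and its -log10 q 7.66, which put it above 54.3% of all peaks by fold and above 79.8% by width. It shared the low fold for its width with the first, since 16.2% of the 2913 peaks of similar width had a lower fold. Its implied input level, 9, was also high. The RAG2 side of the locus thus held both of the wider peaks of the window.

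RAG1, the catalytic subunit, had a narrow peak near the start of its body. It lay 2.62 kb before the body (36585788 to 36586380, 0.593 kb) with a fold of 2.24 and a -log10 q of 1.497. Of all peaks, 11.5% had a lower fold and 17.5% were narrower. Of whole-kb positions, 13.2% lay 2.62 kb or less from a peak, and 15 of the 38 genes of the small set had starts as far from a peak or farther. Those 38 starts are outermost ones, while the RAG1 start used here is the end of the body. From this peak to the one over RAG2, 31.4 kb had no peak, and this stretch held 92.9% of the body of the 2 genes. The median gap between neighbouring peaks was 11.8 kb, and 29.0% of such gaps were as long. Each gap counts once in these shares, while a gap picked for holding a gene body tends to be long. These shares therefore do not show that the stretch is unusual. The median distance of whole-kb positions to a peak was 38.1 kb.

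The RAG1 and RAG2 window as a whole held 3 peaks, and 26.4% of the 30864 windows of its length had as many, while 53.5% had at least 1. Peaks covered 12.8% of it, more than in 86.8% of windows. The band 11p12 is poor in peaks, with 7.89 per Mb against 17.2 in the genome, and 8 of its 78 windows of this length held 3 peaks or more. The nearest peaks left out were a weak one 5.57 kb beyond the left edge (36552572 to 36553426, fold 1.98) and another 32.9 kb beyond the right edge (36682863 to 36683066, fold 2.32).

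Stronger peaks lay farther out, on the RAG1 side. With 100 kb either side, 231 kb in all, there were 15 peaks, a count reached by 5.30% of the 12137 windows of that length. Peaks covered 16.4% of it, more than in 91.2% of those windows. Of the 15 peaks, 9 lay 56.3 to 96.8 kb left of the body. The strongest, at 36529574 to 36532708, had a fold of 8.86, and the next, at 36518942 to 36523787, one of 7.79. TRAF6, a signalling adaptor, is the next protein-coding gene on that side in the gene table. The strongest peak lay 87.3 to 90.4 kb from the RAG2 start in hg19. In GRCh38.p14 the outer RAG1 start is 87.9 kb and the TRAF6 start 88.0 kb from the RAG2 start, so by distance both fall within the span of this peak. Counted from that outer start, RAG1 would have a peak at its start, one it would share with TRAF6.

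DNTT, the template-independent polymerase, lay in the barest of the 3 windows. The only peak was 15.5 kb before its start (98047061 to 98048538, 1.48 kb), with a fold of 3.60 and a -log10 q of 6.66. Of all peaks, 58.2% had a lower fold and 45.4% were narrower, so it was near the middle of the list by both. Its implied input level, 5.95, was near the median. BLNK, an adaptor of B-cell receptor signalling, is the neighbour on this side in the gene table. Its listed start is 32.9 kb before that of DNTT in GRCh38.p14 against 15.5 to 16.9 kb for the peak in hg19, which was not assigned to either gene. Of whole-kb positions, 66.5% were as far from a peak as the start of DNTT or farther, and so were 7 of the 38 starts of the small gene set.

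The peak-free stretch that held the whole DNTT body was 86.3 kb long, from 98048539 to 98134792. Of 51875 gaps between neighbouring peaks outside centromeres and heterochromatin, 11.7% were as long. Here too each gap counts once, so a gap picked for holding a gene tends to rank as long. The peak that ends it, 6.79 kb outside the window (98134793 to 98135230, 0.438 kb), had a fold of 3.87. Its fold was higher than that of 97.5% of the 1854 peaks of similar width. On the other side the next peak outside was 142.7 kb beyond the window (97889015 to 97891344, fold 9.28).

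A single peak was close to the background, since 54.1% of 29884 windows of this length had 1 or more. Peaks covered 1.57% of the DNTT window, against a median of 0.813%. Its band, however, was dense. The band 10q24.1 had 39.6 peaks per Mb, and its 24 windows of this length held a median of 4 peaks. Of these 24, 6 had 1 peak or none, and 5 were covered to a smaller share than the DNTT window. With 100 kb either side, 234 kb in all, DNTT had 2 peaks, and 49.4% of genome windows of that length had 2 or fewer.

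**Figure D2:**
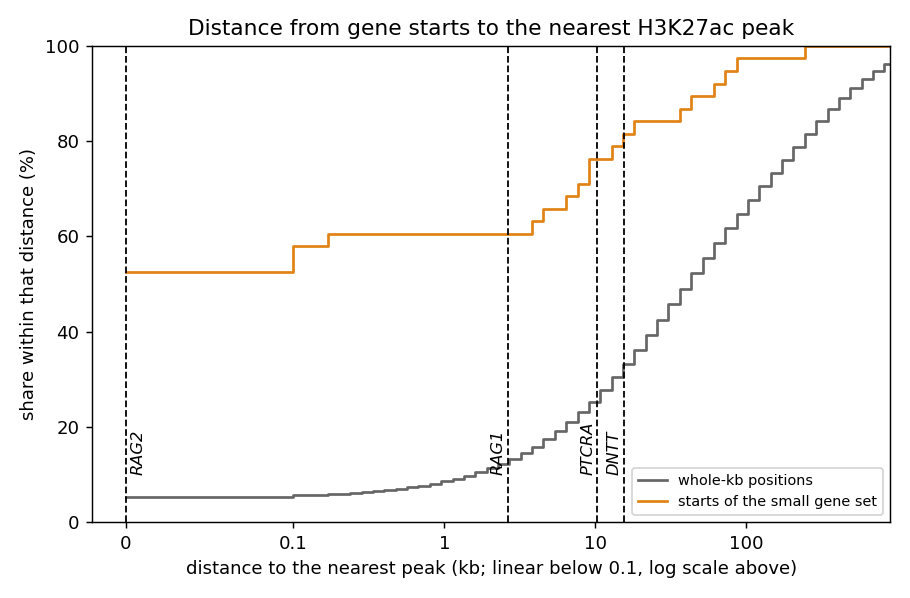
Distance in kb from a position to its nearest H3K27ac peak (x axis, 0 inside a peak) against the share of positions within that distance (y axis, %), for whole-kb positions of the genome and for the 38 starts of the small gene set. Dashed lines mark the 4 genes, at 0 kb for RAG2, 2.62 for RAG1, 10.3 for PTCRA and 15.5 for DNTT. The lines are measured from the body ends, and the small set from outermost starts.

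PTCRA, the pre-T-cell receptor chain, had no peak over its body but the strongest peak of the 3 windows just past its end. That peak ran from 42894281 to 42903242 of chromosome 6, 8.96 kb, with a fold of 11.0 and a -log10 q of 73.5. It ranked 1598 of 52203 by fold and was wider than 94.6% of all peaks. Among the 1074 peaks of similar width, 90.7% had a lower fold. It began 0.281 kb past the end of the body, which is within the 1 kb to which that end is known, so whether it touches the last bases of PTCRA cannot be told apart from its lying wholly outside. CNPY3, a chaperone gene of Toll-like receptors, follows PTCRA on this side in the gene table, in the same direction. Its listed starts are 13.1 and 13.4 kb after that of PTCRA in GRCh38.p14, and the peak spanned 10.3 to 19.2 kb after the PTCRA start in hg19. By distance the peak therefore covers both CNPY3 starts, and it is a member here by position, not as a peak of PTCRA.

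Upstream of PTCRA, 4 peaks lay 12.2 to 24.6 kb before its start. The nearest (42868965 to 42871754, 2.79 kb) had a fold of 5.03, and the farthest (42857726 to 42859421, 1.70 kb) one of 5.59, above 70.6% and 74.3% of all peaks. The other 2 were weak, with folds of 2.36 (42866909 to 42867122) and 2.26 (42861214 to 42862595) and -log10 q values of 2.25 and 1.55. RPL7L1, which is related to a ribosomal protein gene, and PEX39 are the neighbours on this side in the gene table. In GRCh38.p14 the PEX39 start is 25.2 kb before that of PTCRA, a distance within the span of the peak of fold 5.59. A still stronger peak lay 4.93 kb outside the left edge (42846480 to 42849066, fold 12.1, rank 897), 34.9 to 37.5 kb before PTCRA, where the RPL7L1 start lies 36.4 kb before it in GRCh38.p14, and a weak one 7.81 kb outside the right edge (42931809 to 42932018, fold 2.55).

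The start of PTCRA was 12.2 kb from the nearest peak before it and 10.3 kb from the nearest after it. Of whole-kb positions 72.9% were as far from a peak or farther, and so were 9 of the 38 starts of the small gene set. The peak-free stretch around the gene was 22.5 kb long (42871755 to 42894280). The median gap was 11.8 kb and 36.0% of gaps were as long, with the same limit of counting each gap once.

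The PTCRA window, with the peak at the CNPY3 distance included, held the most of the mark. Its 5 peaks were matched or passed in 8.57% of 40137 windows of its length, and 48.4% of windows had at least 1. Peaks covered 21.5% of it, more than in 93.0% of windows, and its sum of fold times width in kb, 126, was reached by 4.67%. The same sum was 43.3 at RAG1 and RAG2, reached by 20.1% of windows, and 5.32 at DNTT, reached by 44.3%. Of the sum at PTCRA, 98.9 came from the peak at the CNPY3 distance. The remainder was below the sum at RAG1 and RAG2, so the order of these windows rests on that peak. The band 6p21.1 was dense too, with 41.2 peaks per Mb, and 20 of its 80 windows of this length held 5 peaks or more.

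**Figure D3:**
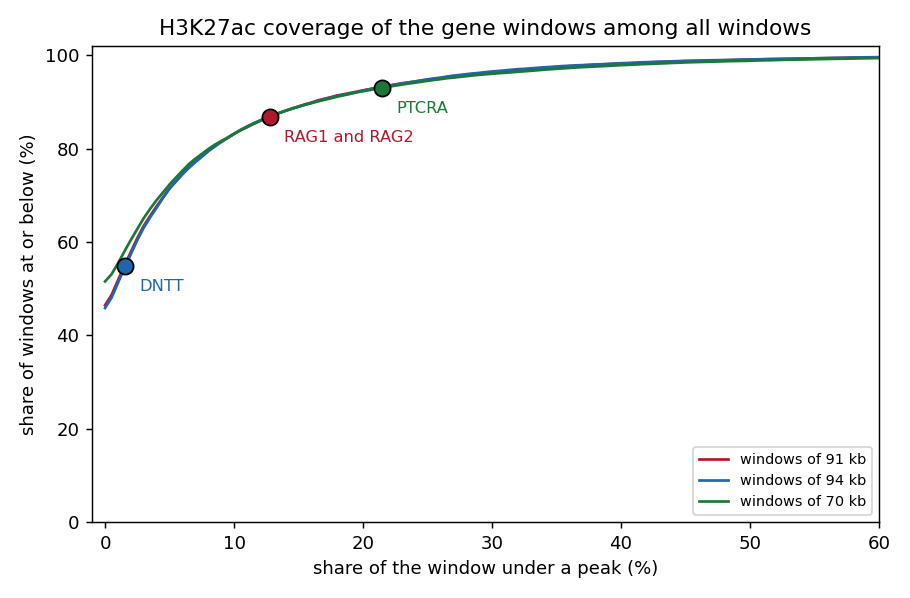
Share of a window under H3K27ac peaks (x axis, %) against the share of all windows of the same length at or below it (y axis, %), with 1 curve per window length of 91, 94 and 70 kb. Points mark the 3 gene windows, at 12.8% for RAG1 and RAG2, 1.57% for DNTT and 21.5% for PTCRA.

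Over the 9 member peaks, folds ran from 2.24 to 11.0 with a median of 3.60, against 3.08 for all peaks, and widths had a median of 1696 bp against 1670. A fold below 3 was found in 3 of the 9, and in 48.2% of all peaks. A -log10 q below 5 was found in the same number of members and in 51.0% of all peaks, while 4 of 9 had 10 or more, against 36.8%. Of these 4, the peak over the RAG2 start touched a gene body of the set, and the other 3 lay in the PTCRA window, 1 of them within 1 kb of the PTCRA body. The medians of the members thus lay close to those of the list.

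**Figure D4:**
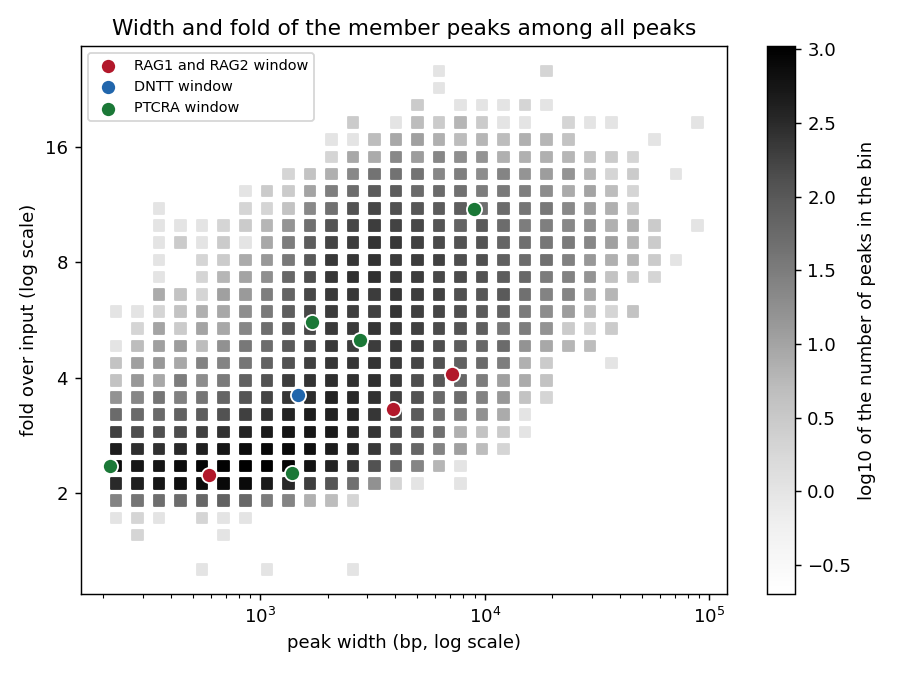
Peak width in bp (x axis, log scale) and fold over input (y axis, log scale) of all 52203 peaks as binned counts in grey, with the 9 member peaks as coloured points by window. The 2 wider RAG2-side peaks sit low for their width, at folds of 4.08 and 3.32, and the peak past PTCRA sits high, at 11.0.

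None of the regions that touched the gene windows was among the 1421 large domains. These domains were set apart when peaks within 12.5 kb were joined into 25510 regions and ranked by summed fold times width. The peaks around the outermost RAG1 start lay outside the window, and the rank of their region was not determined here. Of the regions that touched the windows, the single peak past PTCRA was nearest to the large domains (a sum of 98.9 in the same unit, rank 2120, against 138 for the last large domain). The upstream PTCRA peaks joined with the one outside the window into a region of 5 peaks and 25.3 kb, rank 3871. The peak over the RAG2 start stood alone at rank 7641 and the DNTT peak at 17241.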

How the data were processed

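H3K27ac ChIP and input DNA of LOUCY were sequenced in 1 library each. The submitters' processing notes name Bowtie2, with no version, and hg19. Per the file headers, the authors called broad peaks with MACS version 2.1.0.20140616, ChIP against input, with 84 bp tags, a fragment length of 204 bp and 1 tag kept per position, which caps high pileups. The deposited fold is a ratio of ChIP to local control, 1 per peak. The deposited -log10 p-value and q-value are the caller's. The pileup column was left out, as its 52203 deposited values were all negative.

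Gene bodies were set to the nearest 1 kb, with strands and distances between listed starts from the RefSeq promoter table (GRCh38.p14). The members, lists and motifs were chosen with earlier results of these data known. The items named are the 4 members, all peaks in their windows and the neighbouring genes. Windows were compared with every non-overlapping window of the same length, leaving out centromeres, stalks and variable bands (cytobands of circlize 0.4.16). The small gene set is the hg19 sample of GenomicFeatures 1.54.1. Joining-factor genes, receptor partners and cell type markers need a full hg19 annotation and were not analysed here. The implied input level is the Poisson level at which fold and p-value agree, and is approximate for broad peaks. Counting steps were tested on simulated data. Alternatives were other flanks, q thresholds, overlaps, rankings and stitching. The software was scipy 1.17.1, pandas 2.3.3, matplotlib 3.10.9 and numpy 2.4.6 in Python 3.11.15.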

Additional observations from a re-analysis of the deposited data

How the results depend on the processing

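Every value rests on 1 library pair, gene ends are known to 1 kb, and depth sets how many weak peaks enter the list. Ranking by implied pileup was chosen after seeing the data. A count was taken as kept when within 1.5 times of its value, a share when inside its 95% Wilson interval, and a fold when identical. For shares of windows, peaks or regions, which cover the whole list, that interval served only as a fixed band. It does not measure the error of 1 library. By these rules 19 of 68 alternatives kept the value and 49 moved, many of the shares by little, since their intervals are narrow. No single value has a direction, but the order of the windows did reverse. With 100 kb flanks, and with the gene body alone, RAG1 and RAG2 had more peaks and a larger covered share than PTCRA. The cause of these moves was not tested, except that other flanks change the sequence and stricter thresholds the peaks.

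With the gene body alone, the RAG1 and RAG2, DNTT and PTCRA windows held 1, 0 and 0 peaks and covered shares of 7.13%, 0% and 0%. With 10 kb flanks, DNTT held 0 peaks and PTCRA 1, and the shares were 15.1%, 0% and 29.9%. With 100 kb flanks the counts were 15, 2 and 12, the shares 16.4%, 0.819% and 15.2%, and the highest folds 8.86, 3.87 and 12.1. Of genome windows of these lengths, 5.30%, 58.8% and 8.40% had as many peaks or more. At a -log10 q of at least 5, PTCRA held 3 peaks, and the shares of RAG1 and RAG2 and of PTCRA were 12.1% and 19.2%. At 10 or more the counts were 1, 0 and 3 and the shares 7.81%, 0% and 19.2%.

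The share of all peaks ranked as high as the strongest peak of the window was 36.6%, 41.8% and 3.06% by fold for RAG1 and RAG2, DNTT and PTCRA. It was 31.4%, 43.5% and 2.24% by -log10 p, 8.10%, 54.6% and 5.40% by width, and 26.0%, 46.5% and 2.34% by implied pileup. The share of windows with as much of the mark became 13.2%, 45.1% and 6.96% by covered bp. At a -log10 q of at least 10 it became 23.0% for RAG1 and RAG2 and 4.26% for PTCRA. The share of stitched regions ranked as high as the best one became 23.7%, 61.2% and 5.40% with stitching within 5 kb, from 29.95%, 67.6% and 8.31%. At a -log10 q of at least 10 it became 50.3% for RAG1 and RAG2 and 12.6% for PTCRA. DNTT had no peak at that threshold, so neither share could be computed for it there. Within 5 kb, 2 of the 4 starts had a peak, RAG1 being added.

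No paired analysis was possible because each arm holds a single library.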
